A study of Mus musculus with 26 samples.

Results

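The genes described here are 9 transcripts of the circadian clock, Dbp, Tef, Hlf, Nr1d1, Nr1d2, Ciart, Per1, Per2 and Per3, followed in mesenteric arteries of Panx1 knockout mice and of 3 lines with a substitution in pannexin 1. They were chosen by symbol, with earlier results of these data known, and all 9 were present among the 21031 genes of the deposited normalized table. Pannexin 1, encoded by Panx1, forms a membrane channel that releases ATP, and mesenteric arteries are small resistance vessels whose wall is mostly smooth muscle lined by endothelium. Poly(A) RNA was sequenced in 26 libraries from male mice aged 8 weeks. There were 3 wild-type and 3 global Panx1 knockout libraries. The other 3 lines each carry a substitution at a residue that can be phosphorylated: the Y198F line had 3 mutants (genotype written Y198F+/+) and 3 controls (Y198F-/-), the S205A line 4 mutants (S205A+/+) and 4 controls (S205A-/-), and the Y308F line 3 mutants (Y308F+/+) and 3 controls (Y308F-/-). The controls were littermates or wild-type animals. The substitution and the knockout are carried in every cell, so a change in one wall layer cannot be assigned, and in whole vessels fewer cells of a type and less RNA per cell cannot be told apart. The labels give no hour of dissection, and nothing states that replicates came from separate animals, so p-values measure the spread between these libraries.

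The clock is a loop of transcription that runs in most cells of the body, the vessel wall included. The activators CLOCK and BMAL1 bind E-boxes and switch on genes of repressors, and these then shut the activators down, so that the 2 sets of transcripts peak at opposite times of day. Among the genes described here, the PER proteins and CIART repress CLOCK and BMAL1 directly, NR1D1 and NR1D2 (REV-ERB alpha and beta) repress Bmal1 through ROR elements, and DBP, TEF and HLF carry the rhythm to output genes through D-boxes, where NFIL3 opposes them.

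Total counts ran from 14.9 to 23.6 M (mega-counts) per library. All 6 smooth muscle markers were detected in every library, with a summed normalized count from 360381 to 733611, and the 5 endothelial markers summed to between 18813 and 163597. Panx1 had normalized counts of 10.9, 17.7 and 25.4 in the knockouts against 92.1, 62.9 and 90.5 in wild type, which is in the direction of the label, with a log2 fold change of -2.17 (SE 0.388, adjusted p = 0.250 by edgeR's quasi-likelihood test). S205A control 1, labelled as a control, had a Panx1 value of 15.4, inside the range of the knockouts. In 9 libraries the library name carries a number that begins with 22 (library series 22 below): the Y198F mutants (all 3), 3 of the S205A controls (1 to 3) and 3 of the S205A mutants (2 to 4). What this number stands for is not stated, and it marks a difference in library content: ribosomal RNA genes held 0.0831 to 0.139% of the counts in these 9 libraries and 2.32 to 7.09% in the other 17. All 3 Y198F mutants are in series 22 and none of their labelled controls is.

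Letters that factors of the loop are known to bind occur shortly before the start of the canonical transcript of several of these genes. The 250 bases before the start of the canonical transcript (GRCm39 genome, GENCODE vM39 annotation) were searched on both strands for the E-box CACGTG, the E-prime box CACGTT, the D-box TTATGTAA or TTACGTAA, the ROR element core TAGGTCA or TGGGTCA, and the CRE TGACGTCA. The windows of 30 bases below show 1 match for each gene that held any, 5′ to 3′ in the direction of transcription, with the matched letters in capitals. They are shown so that the letters can be read in their context, and binding at them was not measured.
Tef, E-box 138 bases before the start, chr15:81695465-81695494, plus strand: cacctggcccagCACGTGtctacatcgttt
Ciart, E-box 100 bases before the start, chr3:95789639-95789668, minus strand: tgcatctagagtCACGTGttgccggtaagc
Per1, E-box 22 bases before the start, chr11:68989234-68989263, plus strand: accccttaacgaCACGTGggccctcaattg
Nr1d1, E-prime box 72 bases before the start, chr11:98666214-98666243, minus strand: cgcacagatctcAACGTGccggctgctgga
Per2, D-box 125 bases before the start, chr1:91387153-91387182, minus strand: ccatgtgcgtcTTATGTAAagagagcgacg
Per3, D-box 187 bases before the start, chr4:151129309-151129338, minus strand: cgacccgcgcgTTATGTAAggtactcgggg
Dbp, ROR element core 189 bases before the start, chr7:45354312-45354341, plus strand: ttggccaaataTAGGTCAgtgtcccgcctt

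In all, 3 of the 9 windows held an E-box (Tef, Per1 and Ciart, which has 3), against 6.26% of the windows of all 21770 protein-coding genes. The E-prime box was present in 1 window (Nr1d1, read there as its reverse complement) against 4.16%. The D-box was present in 2 (Per2, and Per3 with 2 matches) against 0.937%, the ROR element core in 1 (Dbp, with 2 matches) against 5.27%, and the CRE in 0 against 1.69%. Hlf and Nr1d2 held none of these letters in this window. Parts of these windows are annotated as exon of the same or another gene, on either strand. That held for 230 of the 250 bases for Nr1d1, 169 for Ciart, 101 for Dbp and 88 for Per3. For Tef it was 69, for Per2 23, and for Hlf, Nr1d2 and Per1 0. A match is a run of letters, not a shown binding site.

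Every one of the 9 transcripts varied by more than 10-fold over the 26 libraries. Dbp, the output factor of widest range, ran from 32.3 in Y308F mutant 2 to 5592 normalized counts in S205A control 3, a 173-fold span. Ciart, a repressor of CLOCK and BMAL1, spanned 80.0-fold, from 7.73 to 618, on raw counts of 9 to 649. Hlf spanned 30.5-fold (30.9 to 944) and Per2 26.7-fold (124 to 3297). The spans of the other 5 lay between 10.7-fold for Per1 and 19.9-fold for Per3. Compared per kilobase of exon, Nr1d1 had the highest median normalized count at 1843, followed by Dbp at 634, Tef at 496, Nr1d2 at 323, Per1 at 193, Per2 at 119, Per3 at 91.3, Ciart at 32.8 and Hlf at 28.9. By this median over all 26 libraries, the nuclear receptor repressor Nr1d1 was the most abundant of them per length, and the output factor Hlf the least. The lowest value per kilobase was smaller for Ciart (2.96) than for Hlf (4.46).

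**Figure D1:**
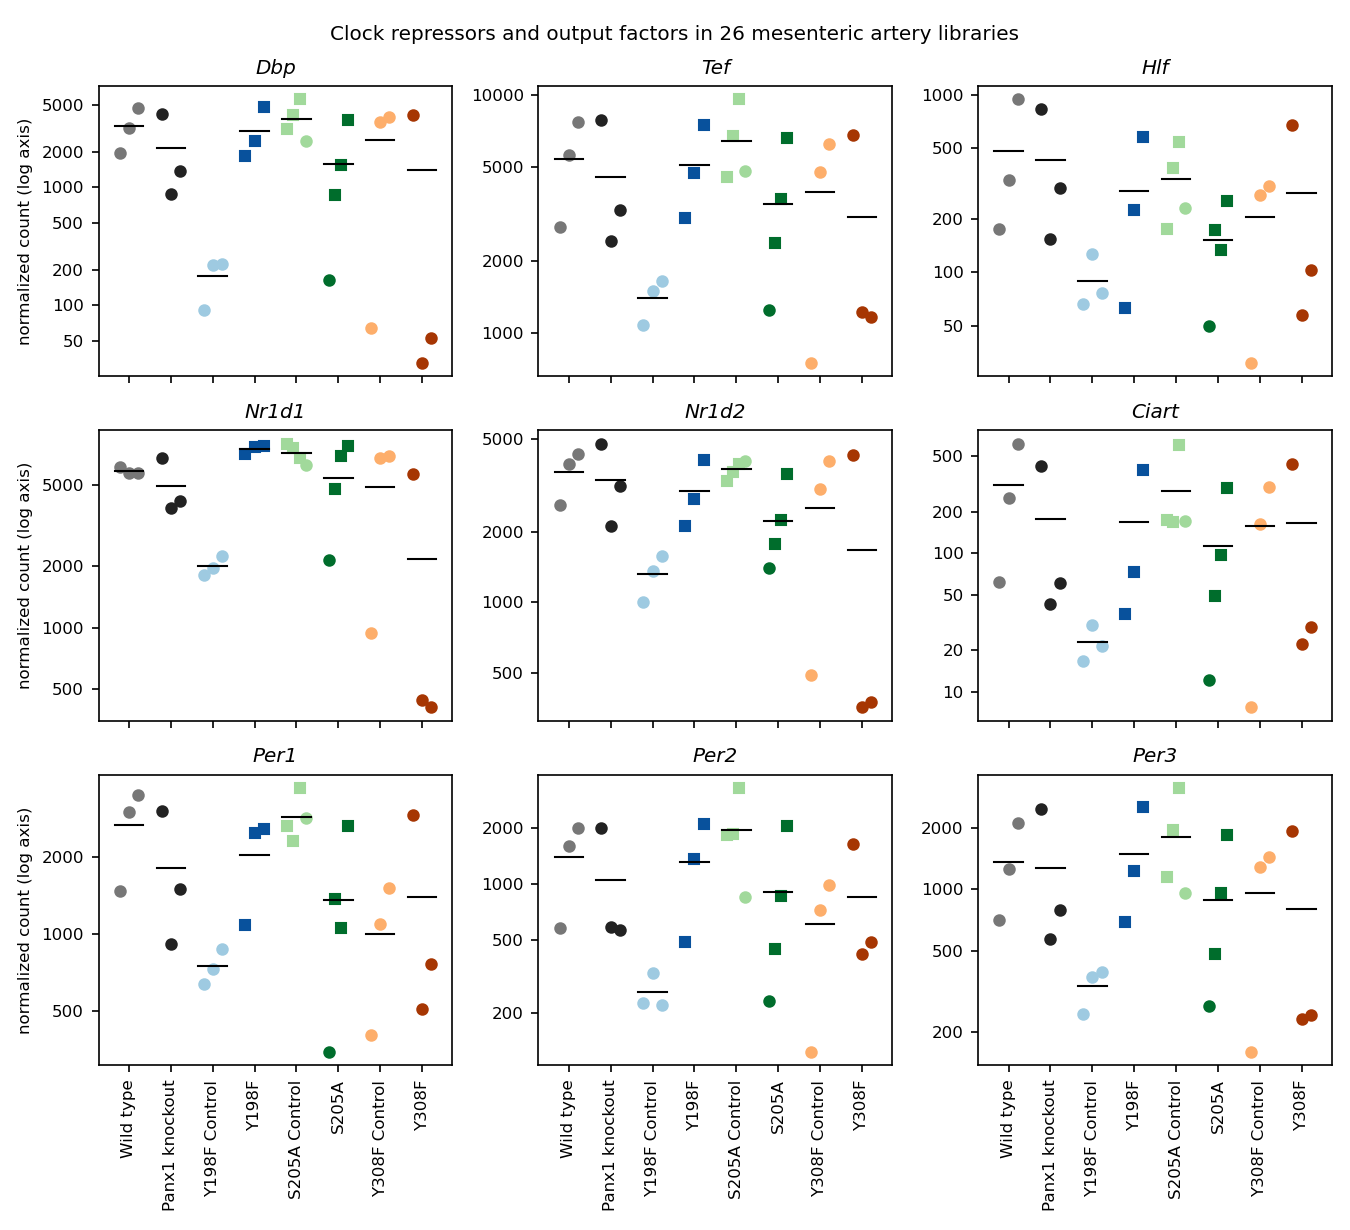
Normalized counts (log axis) of the 9 genes in each library, by group, with squares for libraries of series 22, circles for the others and a bar for the group mean. The Y198F controls lie low together, while the Y308F controls and the Y308F mutants each hold libraries at both ends: Dbp was 4140 in Y308F mutant 1 and 32.3 and 53.1 in mutants 2 and 3.

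By group mean, the Y198F controls were the lowest of the 8 groups for all 9 genes, and the S205A controls were the highest for 6 of them (Dbp, Tef, Nr1d2, Per1, Per2 and Per3). Wild type was the highest for Hlf and Ciart, and the Y198F mutants were the highest for Nr1d1. Mean Dbp fell in the order S205A controls (3813 ± 1363, SD, n = 4), wild type (3287 ± 1404, n = 3), Y198F mutants (3012 ± 1544, n = 3), Y308F controls (2524 ± 2139, n = 3), Panx1 knockouts (2140 ± 1782, n = 3), S205A mutants (1581 ± 1555, n = 4), Y308F mutants (1409 ± 2366, n = 3) and Y198F controls (177 ± 75.0, n = 3). Neighbours in such an order overlapped in 62 of 63 pairs over the 9 genes, and in 98.6% of such pairs over all 18715 genes. The exception was Nr1d1, where the 4 S205A controls (6274 to 8019) all lay above the 3 wild-type libraries (5732 to 6185).

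Comparison of Y198F arteries with their labelled controls gave the only calls among these genes. Dbp, Tef, Nr1d1 and Nr1d2 were higher in the mutants, and the other 5 genes had positive fold changes that did not pass the test. That is 4 of 9, all higher, against 15.0% of the 16050 genes tested that were called at all and 9.55% that were called higher. The median log2 fold change was 1.92 over the 9 genes and -0.00 over all tested genes. The number of calls rested on single libraries: only Nr1d1 was called without control 2 (beside 10.2% of all genes), without control 3 (5.43%) or without mutant 2 (9.97%), and only Dbp and Nr1d1 without control 1 (9.21%). Without mutant 3, 5 were called (12.6%), and without mutant 1 all 9 (12.8%). With all 8 groups in one edgeR fit 0 were called, beside 4.93% of genes. In that fit 6 had an unadjusted p under 0.05, beside 21.6% of genes. DESeq2 called 8 (14.3%), limma voom 7 (17.7%), and edgeR 6 with the replicate number as a block (11.0%). Without the filter on low counts the call of Tef was lost (3 called, 11.0%).

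Among the output factors, Dbp had normalized counts of 90.3, 218 and 222 in the controls and 1828, 2449 and 4758 in the mutants. The groups did not overlap, and the lowest mutant was well above the highest control. The log2 fold change was 4.10 (SE 0.598, adjusted p = 0.0179). Tef, a close relative of Dbp with the same DNA target, was 1076, 1491 and 1641 in the controls and 3036, 4684 and 7505 in the mutants, again without overlap (log2 fold change 1.87, SE 0.386, adjusted p = 0.0351). Hlf, the third factor of this family, was 66.2, 126 and 76.7 in the controls and 63.1, 224 and 577 in the mutants. Mutant 1 lay below all controls, so Hlf was the 1 gene of the 9 whose groups overlapped, and its log2 fold change of 1.69 (SE 0.873, adjusted p = 0.292) did not pass.

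Nr1d1 gave the smallest adjusted p of the 9 genes. It was 1807, 1967 and 2247 in the controls and 7138, 7734 and 7824 in the mutants, 2 tight sets with nothing between them (log2 fold change 1.92, SE 0.116, adjusted p = 4.37e-06). Nr1d2, the second REV-ERB receptor, was 1007, 1364 and 1575 in the controls and 2118, 2776 and 4047 in the mutants (log2 fold change 1.19, SE 0.280, adjusted p = 0.0383). The 2 receptors therefore moved in the same direction, by different amounts.

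Among the direct repressors, Ciart was 16.8, 30.6 and 21.4 in the controls and 36.6, 73.6 and 397 in the mutants. Most of its mean came from mutant 3, and the log2 fold change of 2.89 (SE 1.04) had an adjusted p of 0.143. Per1 was 635, 726 and 876 in the controls and 1079, 2460 and 2552 in the mutants, with a log2 fold change of 1.45 (SE 0.376, adjusted p = 0.0655). Per2 was 226, 329 and 222 in the controls and 486, 1367 and 2107 in the mutants (log2 fold change 2.36, SE 0.625, adjusted p = 0.0802). Per3 was 244, 371 and 392 in the controls and 691, 1232 and 2559 in the mutants (log2 fold change 2.16, SE 0.585, adjusted p = 0.0843). In all 3 Per genes mutant 1 was the lowest mutant and still lay above every control. Groups did not overlap for 8 of the 9 genes, as they did not for 34.2% of all tested genes (18.6% with the mutants higher), and an exact two-sided permutation test gave the smallest p it can reach with 3 against 3, 0.1, for each of those 8.

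**Figure D2:**
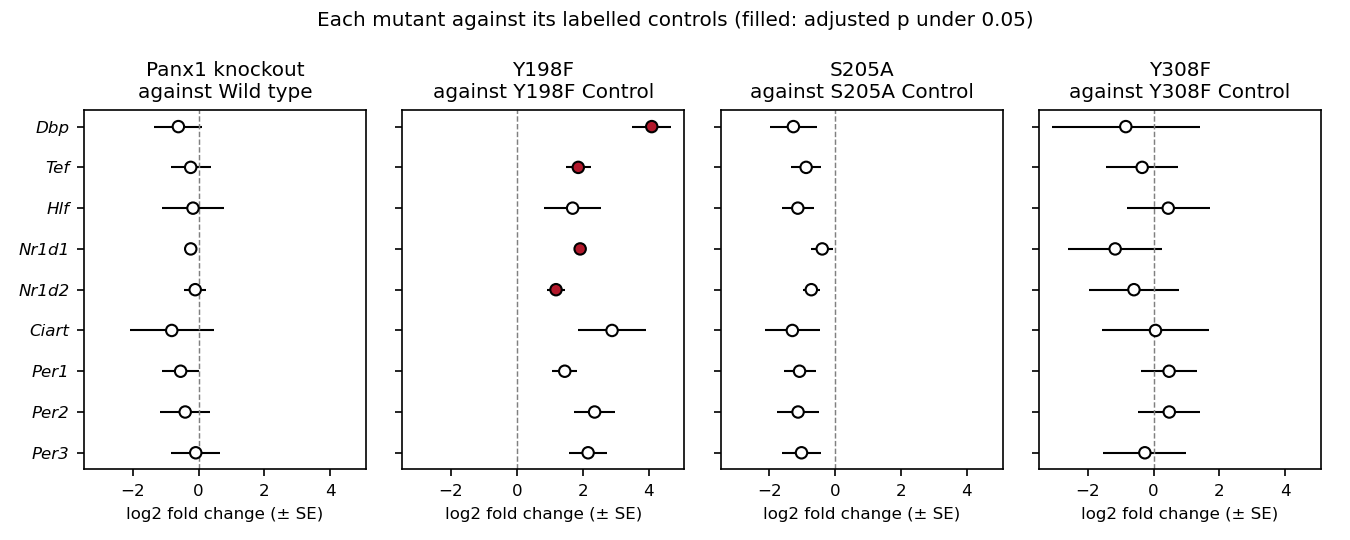
Log2 fold change (± SE, edgeR) of the 9 genes in each of the 4 comparisons of a mutant with its labelled controls, with filled points for an adjusted p under 0.05. The 4 filled points are Dbp, Tef, Nr1d1 and Nr1d2 in Y198F, all 9 points of Panx1 knockout and of S205A lie below 0, and the Y308F points lie on both sides with SEs of 0.858 to 2.25.

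In this comparison the mutation and the library series cannot be told apart. Summed markers differed as well: the 5 fibroblast markers were 21398 to 36039 in the mutants and 38340 to 49057 in the controls, and the 4 Schwann cell markers were 1455 to 1697 and 1779 to 3201. None of these markers is at 0 across the libraries, and their part in the result was not tested.

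The Y198F mutants were therefore also set beside the 3 S205A controls of series 22. Dbp was 3115, 4091 and 5592 in those controls, against 1828, 2449 and 4758 in the mutants, so the groups overlapped. The log2 fold change was -0.50 (SE 0.399). Nr1d1 was 8019, 7597 and 6807 in those controls, close to the mutants, and its log2 fold change was 0.02 (SE 0.138). Of the 9 genes, 8 had a negative fold change, down to -0.89 for Ciart, all 9 overlapped (the groups were separate for 8.24% of all genes), and edgeR called 0, with 0 at an unadjusted p under 0.05. It also called 0 of all 15879 genes, 0%, with 492 at an unadjusted p under 0.05. One of these references, S205A control 1, has Panx1 inside the range of the knockouts. Without it, in a comparison added after seeing the data, 8 of the 9 fold changes were again negative, from -1.18 for Ciart to -0.32 for Nr1d2, with Nr1d1 at 0.08, and edgeR called 0 of 9 and 0% of 16631 genes, with 0 of 9 and 719 genes at an unadjusted p under 0.05. When all 8 groups were fitted with a term for the library series, the log2 fold changes against the labelled controls stayed positive, from 0.51 to 2.26, and 0 of 9 were called, with 0 at an unadjusted p under 0.05, beside 0% of 18715 genes. The series term itself, library series 22 minus other, can be estimated only within the S205A line, the 1 line with both. Outside series 22 that line has only control 4 and mutant 1, and mutant 1 was its lowest library for each of the 9 genes. Control 4 lay below the controls of series 22 for Dbp, Nr1d1, Per2 and Per3. It lay above them for Nr1d2 (4024 against 3284 to 3901) and among them for the other genes. The series term was positive for all 9 genes, from 0.31 for Nr1d2 to 1.85 for Dbp, the direction of the Y198F difference. Of these, 0 of 9 were called, with 0 at an unadjusted p under 0.05, beside 11.7% of genes called. The sign of the Y198F difference thus depended on which controls it was measured against for 8 of the 9 genes.

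**Figure D3:**
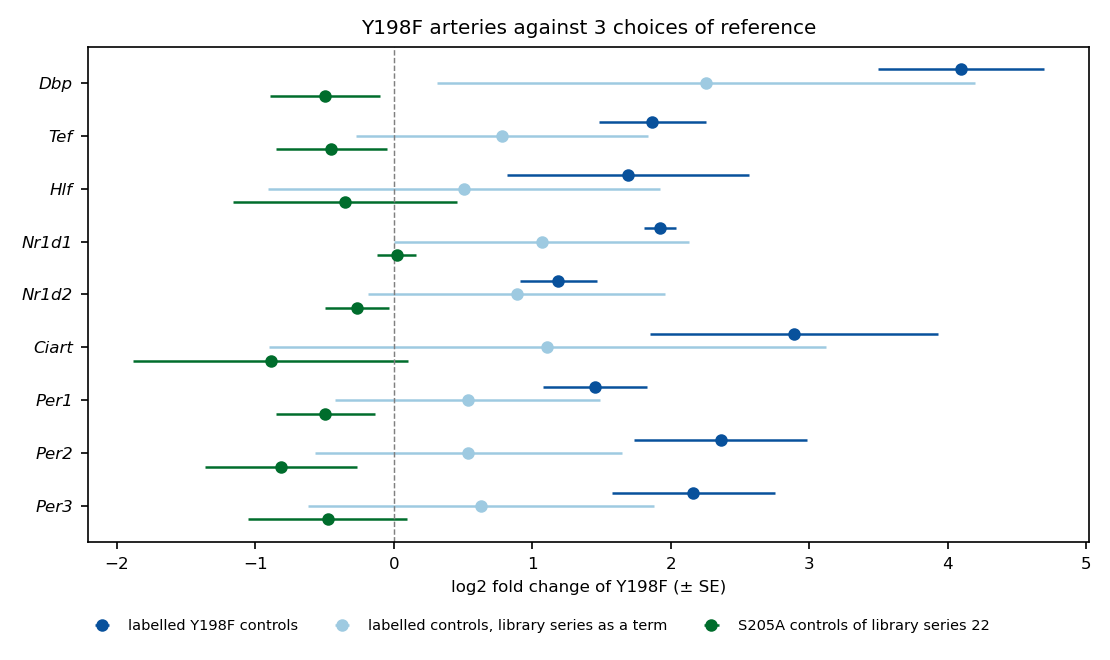
Log2 fold change (± SE, edgeR) of the 9 genes in the Y198F mutants against 3 references: the labelled controls, the labelled controls with library series as a term, and the S205A controls of library series 22. Dbp moves from 4.10 to 2.26 to -0.50 across the 3 references, and Nr1d1 from 1.92 to 1.07 to 0.02.

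The Y198F fold changes in the authors' deposited table matched a DESeq2 fit of all libraries against the S205A controls, not the labelled Y198F controls. The largest difference over the 9 genes between that table, the authors' deposited table, and the refit was 1.23e-05 with S205A controls and 4.43 with Y198F controls. In the authors' deposited table for Y198F, the adjusted p of these 9 genes ran from 0.931 to 0.994, and 3 of the 18991 genes listed, 0.0158%, were under 0.05. Its fold changes for Dbp and Nr1d1 were -0.34 and 0.08 in the authors' deposited table.

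Loss of Panx1 gave no call among the 9 genes. Dbp was 1953, 3156 and 4751 in wild type and 4178, 877 and 1364 in the knockouts, so knockout 1 lay with the upper wild-type libraries and the other 2 lay below all of them. Nr1d1 was nearly flat in wild type at 6185, 5732 and 5762, and was 6812, 3875 and 4209 in the knockouts. Per2 was 579, 1597 and 2011 in wild type and 2004, 584 and 562 in the knockouts. The same 2 knockouts were the lower ones for each of the 9 genes. All 9 fold changes were negative, from -0.81 (SE 1.28) for Ciart to -0.08 (SE 0.751) for Per3, with adjusted p from 0.706 to 0.979. edgeR, DESeq2 and limma each called 0 of 9, with 0 at an unadjusted p under 0.05 in edgeR, beside 0.0309% of 16193 genes called by edgeR, 0.878% by DESeq2 and 0.0185% by limma. In 0 of the 9 genes were the groups separate, against 18.5% of all genes. Without knockout 1 the fold changes ran from -2.58 to -0.46, with 2 at an unadjusted p under 0.05 (7.24% of all genes), and without wild type 3 from -0.29 to 0.77, with 5 of the 9 positive.

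The S205A arteries showed fold changes below 0 for all 9 genes, and none passed the test. Dbp was 3115, 4091, 5592 and 2454 in the controls and 164, 864, 1540 and 3756 in the mutants. Mutants 1 to 3 lay below every control and mutant 4 lay among them. The log2 fold change was -1.27 (SE 0.725). Nr1d2 was 3284, 3609, 3901 and 4024 in the controls and 1400, 1772, 2258 and 3518 in the mutants, in which the same 3 mutants lay below every control (log2 fold change -0.72, SE 0.250, unadjusted p = 0.0160, and 0.0571 by an exact permutation test). Hlf was 176, 388, 545 and 230 in the controls and 50.2, 173, 134 and 253 in the mutants (log2 fold change -1.14, SE 0.494, unadjusted p = 0.0471). Per1, which also responds quickly to external signals, was 2618, 2298, 3696 and 2820 in the controls and 347, 1370, 1049 and 2628 in the mutants (log2 fold change -1.08, SE 0.487). Per2 was 1839, 1872, 3297 and 847 in the controls and 234, 447, 856 and 2059 in the mutants, a wider overlap than for Per1.

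The S205A fold changes ran from -1.30 for Ciart to -0.39 for Nr1d1. edgeR called 0 of 9, with 2 (Hlf and Nr1d2) at an unadjusted p under 0.05 (2.87% of all genes), and DESeq2 and limma called 0 too. The number at an unadjusted p under 0.05 was 2 with DESeq2 (beside 2.40% of all genes in that fit), 8 with limma voom (4.90%), 5 with the replicate number as a block (2.27%) and 8 without mutant 4 (3.23%). A single fit of the 8 groups gave 0 (5.14%), as did library series 22 alone (3.41%). It was 1 with the series as a term (6.05%), without the filter on low counts (2.80%), without control 2 (2.61%), control 3 (2.13%) or control 4 (4.24%), and without mutant 2 (2.92%) or mutant 3 (1.61%). It was 2 with DESeq2's size factors in edgeR (2.89%), without control 1 (4.75%) and without mutant 1 (2.64%). Among all 15709 genes edgeR called 0, 0%, with 451 at an unadjusted p under 0.05, and DESeq2 called 47, 0.311%. Groups were separate for 0 of the 9, against 1.77% of all genes. Mutant 1 was the lowest S205A library for each of the 9 genes. It lies outside series 22, and without it the 9 fold changes ran from -0.92 to -0.13. With only series 22 in both groups they ran from -1.09 to -0.19, and without S205A control 1, the control with low Panx1, from -1.47 to -0.33. The 9 immediate early genes summed to 22606 to 78857 in the S205A mutants and 11895 to 24083 in the controls, the fibroblast markers to 23164 to 72762 and 15024 to 24181, and the Schwann cell markers to 1263 to 3043 and 910 to 1375. The 7 measured glucocorticoid response genes, a list that holds Per1, summed to 2750 to 7210 in the mutants and 6185 to 8508 in the controls. Their part in the result was not tested.

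In the Y308F line, libraries of the same group lay far apart. Dbp was 64.4, 3563 and 3945 in the controls and 4140, 32.3 and 53.1 in the mutants, so control 1 resembled mutants 2 and 3, and mutant 1 resembled controls 2 and 3. Nr1d1 was 943, 6785 and 6959 in the controls and 5705, 439 and 405 in the mutants. Nr1d2 was 488, 3062 and 4006 in the controls and 4273, 356 and 375 in the mutants. Both receptors were lower in mutants 2 and 3 than in control 1. Per2 went the other way among these 3 low libraries, at 124 in control 1 and 418 and 488 in mutants 2 and 3. Per1 likewise was 404 in control 1 and 507 and 763 in those mutants. Tef, Hlf, Ciart and Per3 were also lower in control 1 than in mutants 2 and 3. Dbp was higher in control 1, as the receptors were.

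Of the 9 fold changes in Y308F, 4 were positive and 5 negative, from -1.16 (SE 1.42) for Nr1d1 to 0.48 (SE 0.937) for Per2. The SE of Dbp, 2.25, was the widest of the 9, around a log2 fold change of -0.84. edgeR, DESeq2 and limma each called 0 of 9, with 0 at an unadjusted p under 0.05 in edgeR. Over all 16037 genes edgeR called 0, 0%, with 706 at an unadjusted p under 0.05. Groups were separate for 0 of the 9, against 10.7% of all genes. Without mutant 1 the fold changes ran from -5.90 to -0.44, with 3 at an unadjusted p under 0.05 (4.79% of all genes), and without control 1 from -1.65 to 0.10. The 9 immediate early genes summed to 12391 to 20552 in the mutants and 9269 to 10790 in the controls, and their part in these values was not tested.

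Tested together over the 8 groups, 0 of the 9 genes differed by edgeR's F test, with 0 at an unadjusted p under 0.05 and adjusted p from 0.330 to 0.684, while 7.10% of 18715 genes did. DESeq2 called 0 as well, beside 14.6% of genes. The 6 differences between 2 mutation effects gave 54 tests over the 9 genes. edgeR called 0 of these, beside at most 0.577% of all genes in any of the 6 (Panx1 knockout minus Y198F) and 0.0107% in Panx1 knockout minus S205A or minus Y308F. An unadjusted p under 0.05 was found in 13, and all 13 involved Y198F with its labelled controls: 3 in Panx1 knockout minus Y198F (beside 19.7% of all genes), 8 in Y198F minus S205A (18.0%) and 2 in Y198F minus Y308F (17.6%). DESeq2 called 2, Dbp and Per2 in Y198F minus S205A, where it called 3.83% of 19559 genes and edgeR 0.0160%. With the series as a term, edgeR called 0 of the 54, beside 0 to 3 of 18715 genes in each of the 6. It then had 0 of the 54 at an unadjusted p under 0.05, beside 4.61% of the tests of all genes over the 6 (501 to 1340 genes, 2.68% to 7.16%).

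Pooled over the 8 groups, each of these genes had a larger SD within groups than the median gene. On log2 normalized counts, Dbp had a within-group SD of 1.96, above that of 99.81% of 18715 genes, and Ciart 1.78, above 99.50%. Hlf followed at 1.28, Per3 at 1.17, Per2 at 1.09, Nr1d1 at 0.987, Tef at 0.983, Nr1d2 at 0.957 and Per1 at 0.868, which was still above 75.73% of genes. The median gene had 0.351. The spread was not the same in every group. Nr1d1 had an SD of 0.0613 in wild type, 0.0721 in the Y198F mutants, 0.158 in their controls and 0.159 in the S205A controls, but 1.65 in the Y308F controls and 2.17 in the Y308F mutants. Nr1d2 had 0.131 in the S205A controls, and Dbp ran from 0.512 in those controls to 3.37 and 3.83 in the Y308F controls and mutants. Without the Y308F line, an alternative added after seeing the data (20 libraries), the SD of Dbp was 1.11, above 82.73% of genes, that of Ciart 1.5, above 95.97%, and those of Nr1d1 and Nr1d2 0.437 and 0.436, above 56.32% and 56.27%. The other 5 then lay between 0.737 for Tef and 1.07 for Hlf, beside a median of 0.353 over all genes. The share of each gene's variance that lay within groups ran from 44.6% for Nr1d1 to 70.1% for Hlf, beside a median of 63.9% over all genes.

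**Figure D4:**
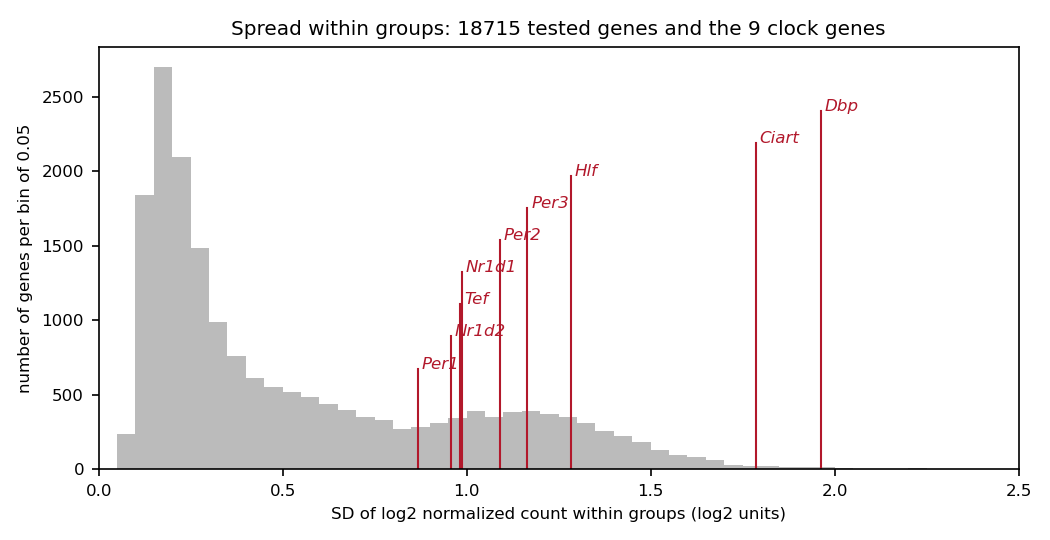
SD of log2 normalized counts about the 8 group means, as a histogram over 18715 genes in bins of 0.05 (grey), with a red line at each of the 9 clock genes. Dbp at 1.96 and Ciart at 1.78 lie at the right edge, and all 9 lie above the median of 0.351, with the Y308F libraries included.

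Within groups the 9 genes moved together. Over the residuals about the group means in 26 libraries, Pearson's r over the 36 pairs ran from 0.728 (Nr1d1 and Per2) to 0.990 (Tef and Per3), with a median of 0.904. Without the Y308F line it ran from 0.511 (Hlf and Nr1d1) to 0.986, with a median of 0.884 (n = 20). Spearman's rho ran from 0.692 to 0.982. Each of the 36 pairs passed a permutation test within groups, adjusted over the 36, with the highest adjusted p at 0.00325 for r and 0.00557 for rho. Without the 2 libraries farthest from the median, r ran from 0.629 to 0.987. Within series 22 the median r was 0.821 (n = 9), with Hlf and Nr1d1 at only 0.0999, and within the other series it was 0.956 (n = 15, without the S205A line, which has 1 library a group there). Tef tracked the mean of the other 8 most closely (r = 0.988) and Nr1d1 least (r = 0.869). All values of a library share its preparation and depth.

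The activator side ran opposite. Bmal1, listed under its older symbol Arntl, was 26.7 in wild type 3 and 1277 normalized counts in Y308F mutant 3, a 47.9-fold span. Its residuals gave r from -0.936 with Per3 to -0.787 with Nr1d1 (rho from -0.938 to -0.687, highest adjusted permutation p 0.00303 for r and 0.00746 for rho over 9 relations). Within series 22 the weakest was again Nr1d1, at -0.147. Without the 2 farthest libraries the values ran from -0.924 to -0.648. Dbp exceeded Bmal1 in 19 libraries, by as much as 178-fold in wild type 3, and lay below it in 7: the 3 Y198F controls, Y308F control 1, Y308F mutants 2 and 3, and S205A mutant 1. The lowest ratio was 0.0289, in Y308F mutant 2. All 7 are outside series 22, and they are also the 7 lowest libraries by mean rank over the 9 genes.

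**Figure D5:**
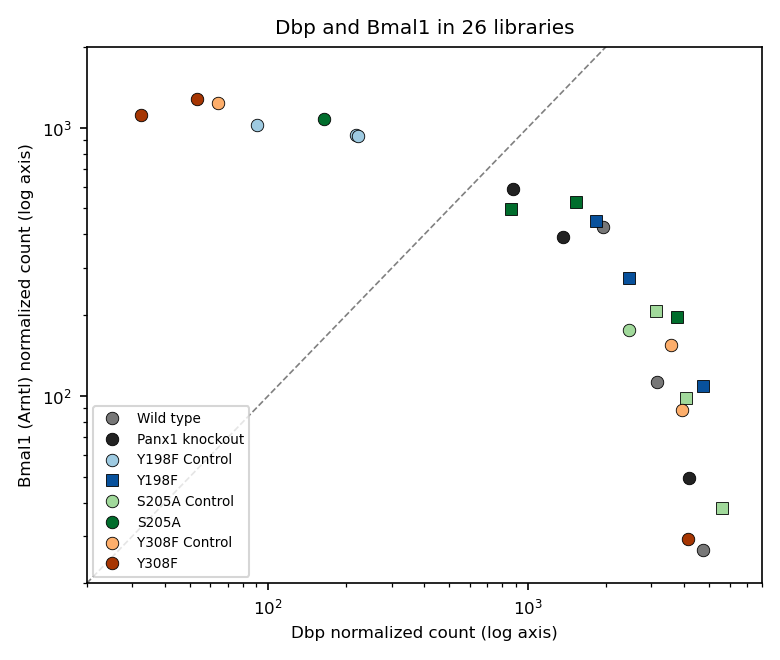
Normalized counts of Bmal1 (Arntl) against Dbp in 26 libraries, both on log axes, coloured by group, with squares for library series 22 and a dashed line where both are equal. The 7 libraries left of the line have Dbp between 32.3 and 222. In the other 19, Dbp lies between 864 and 5592 and Bmal1 between 26.7 and 589.

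Other clock genes were counted from lists of 7 activator-side genes, 12 further repressors and modifiers and 11 output genes. In Y198F against its labelled controls, 2 of the 6 activator-side genes tested were lower and 0 higher, beside 5.48% of all genes called lower and 9.55% called higher. These were Clock, the partner of BMAL1 (log2 fold change -0.74, SE 0.149, adjusted p = 0.00884), and Nfil3, the factor that competes with DBP for D-boxes (-1.56, SE 0.300, adjusted p = 0.00716). Bmal1 had -1.79 (SE 0.510, adjusted p = 0.0889). The series term of the fit of all 8 groups was also negative for 5 of these 6 genes. It was called by edgeR for 1 of the 6, Rora (-0.62, SE 0.115, adjusted p = 0.000844), beside 11.7% of all genes. Of the 12 repressors and modifiers, 3 were higher (Cry2 at 0.48, Bhlhe40 at 0.96 and Bhlhe41 at 2.11) and 1 lower (Prkaa2 at -0.46). Of the 11 output genes, 5 were higher and 2 lower. Bhlhe41 is in both of these lists and is counted in each. In the other 3 comparisons edgeR called 0 genes of these lists. There S205A had Bmal1 at 2.14 (SE 0.589, unadjusted p = 0.00535) and its relative Npas2 at 2.38 (SE 0.561, unadjusted p = 0.00209), both with an adjusted p of 1.

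Dbp's residuals gave negative r with Nfil3 (-0.945), Npas2 (-0.889) and Clock (-0.782), and positive r with Bhlhe41 (0.919), Cry2 (0.783) and Bhlhe40 (0.719), each passing a permutation test adjusted over 18 relations. Cry1, a repressor that peaks later than the others, had r = -0.641 with an adjusted p of 0.0568. Without the 2 farthest libraries these 7 values kept their signs, with Cry1 at -0.447. Within series 22 (n = 9) and within the other series (n = 15) r was -0.956 and -0.964 for Nfil3, -0.915 and -0.912 for Npas2, -0.609 and -0.886 for Clock, 0.955 and 0.937 for Bhlhe41, 0.453 and 0.788 for Cry2, and 0.501 and 0.839 for Bhlhe40. Cry1 did not keep its sign, at 0.0686 within series 22 and -0.861 within the others.

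The counting of reads by strand is not given in the sources used here, and 3 of the genes share exons with a protein-coding gene on the opposite strand. In Nr1d1 (chromosome 11, from 98658752 to 98666188, minus strand), 1694 of 3242 exon bases overlap Thra. Dbp (chromosome 7, from 45354512 to 45359627, plus strand) shares 539 of 3470 with Sphk2, and Per3 (chromosome 4, from 151081373 to 151129140, minus strand) shares 154 of 10491 with Uts2. Noncoding genes on the opposite strand overlap exons too, by up to 916 of 8260 bases in Tef, 449 in Per3, 334 of 7659 in Per1, 250 of 2608 in Ciart and 17 in Nr1d1. Levels of these 6 genes, Nr1d1 above all, are uncertain to that extent, and Hlf, Nr1d2 and Per2 share no exon base with a gene of this annotation.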

How the data were processed

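Reads in pairs of 150 bases were mapped by the authors to GRCm39 (STAR 2.7.9a) and counted (featureCounts, Rsubread 2.20.0), as the series' design text and the submitters' processing notes state; the annotation release is not given in the sources used here. The authors deposited whole-number counts for 57010 genes and a normalized signal, the counts divided by a DESeq2 size factor per library (checked on the values), for the 21031 genes with a total above 50. The authors' deposited tables of comparisons, from DESeq2 1.46.0 per the same notes, hold log2 fold changes with standard errors, test scores and p-values. Groups follow the titles.

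Each comparison was tested on the counts with edgeR 4.0.16 (quasi-likelihood, TMM, filterByExpr, its 2 groups only) in R 4.3.3, with Benjamini-Hochberg adjustment over all genes tested and a threshold of 0.05; limma 3.58.1 and DESeq2 1.42.0 were alternatives, and the fits were tested on simulated data. edgeR's test reports no SE, so each SE given with its fold changes is the absolute log2 fold change divided by the square root of the test's F statistic. Spread and correlations use log2 of the normalized count plus 1. Permutation tests of correlations shuffled libraries within groups 100000 times. The genes named are the 9 members, Panx1, the listed activators and repressors, and the 4 genes at each end of a ranking by likeness. The members and lists were chosen with earlier results of these data known. Counts of every pair of replicates differed beyond sampling noise (chi-square per degree of freedom 14.98 to 159 over 30 pairs). Library totals limit the precision of the lowest values, such as 9 counts of Ciart.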

Additional observations from a re-analysis of the deposited data

Results flagged for a closer look

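Among the 20 groups of 4 libraries examined (the 9 clock genes and Bmal1 in the 2 S205A groups), 1 held a library far from the others, and chance gives about 1 in 20. Ciart was 605 normalized counts in S205A control 3 against 173, 169 and 170 in controls 1, 2 and 4, a gap of 0.991 of the group's whole range. The same library had the highest Dbp, Tef, Per1, Per2 and Per3 of all 26.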

How the results depend on the processing

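Of 513 alternative values of the fold changes, 430 kept their sign and their side of the threshold, 46 changed sign, 15 gained a call and 22 lost one with the sign kept; 6 of the 46 had been called too (Dbp, Tef and Nr1d2 in Y198F, against each set of S205A controls), so 28 calls were lost in all. S205A changed in none of its 144. In Y198F, where the shares of all genes called are given with the comparison, the members called were 8 with DESeq2, 7 with limma voom, 0 with all 8 groups in one fit, 0 with the series as a term and 0 against the S205A controls of series 22, where the fold changes of Dbp, Tef, Hlf, Nr1d2, Ciart, Per1, Per2 and Per3 were -0.50, -0.45, -0.35, -0.27, -0.89, -0.49, -0.82 and -0.48. Without S205A control 1 among those references, an alternative added after seeing the data, 0 were called and the same 8 were -0.68, -0.68, -0.68, -0.32, -1.18, -0.55, -0.96 and -0.77. Leaving out 1 library gave 1 to 9: 2 without control 1, 1 without control 2, 1 without control 3, 9 without mutant 1, 1 without mutant 2 and 5 without mutant 3, with Nr1d1 called in each. Limma voom gave Hlf 0.0873 in the knockout, and Hlf -0.26 and Ciart -0.76 in Y308F. DESeq2 called 2 differences between mutation effects. The median correlation was 0.821 within series 22.

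Leaving out 1 knockout or wild-type library moved Tef from -0.92 to 0.12, Hlf from -1.10 to 0.77, Nr1d2 from -0.46 to 0.14, Ciart from -2.58 to 0.18 and Per3 from -1.01 to 0.38. For Y308F the ranges were -1.72 to 0.17 (Tef), -1.35 to 0.95 (Hlf), -2.62 to 0.95 (Ciart), -0.66 to 0.90 (Per1), -0.44 to 1.02 (Per2) and -2.03 to 0.19 (Per3). The cause was not tested.

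Replicate numbers did not pair the samples (same-number correlations -0.374 to 0.306). With the replicate number as a block, 6 members were called in Y198F and 0 in each other comparison, and Hlf and Ciart were -0.33 and -1.25 in Y308F. Groups of 3 cannot reach an exact p under 0.1, and Ciart and Hlf have the fewest counts.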

Other observations

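Outside the clock lists, 12479 genes were ranked by Pearson's r with the mean of the 9 members over the residuals in 26 libraries, as a description. The highest were Ifrd2 (0.905), Rsad1 (0.880), Tcap (0.865) and Alpk1 (0.856), and within series 22 they had 0.894, 0.647, 0.603 and 0.951. Ifrd2 ranged from 208 to 479 normalized counts and Tcap, a sarcomere protein, from 105 to 608, narrower spans than any of the 9 clock genes. The lowest were Glipr2 (-0.924), Leo1 (-0.906), a subunit of the PAF1 elongation complex, Snx18 (-0.856), a sorting nexin, and Zfp36l1 (-0.849), an RNA-binding protein that promotes decay of its targets. Leo1 ranged from 82.3 to 528 and Glipr2 from 370 to 883.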
